A study of Homo sapiens with 4 samples.

Results

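Aminoacyl-tRNA synthetases join each amino acid to its own tRNA, the step that supplies charged tRNAs to the ribosome. Cytosolic and mitochondrial translation use separate enzymes for most amino acids, and by convention the symbol of the cytosolic gene ends in 1 and that of the mitochondrial gene in 2. *GARS1* and *KARS1* are exceptions, since each encodes a cytosolic and a mitochondrial form of its enzyme. Several cytosolic enzymes sit in a multi-synthetase complex held together by scaffold proteins, among them AIMP1 and AIMP2. The genes described here were taken by symbol, as every symbol of the pattern letter-ARS with or without a final 1 or 2, together with *EPRS1*, *FARSA*, *FARSB*, *AIMP1* and *AIMP2*. This gave 39 of the 28278 genes in the count table, of which 20 encode cytosolic enzymes, 17 mitochondrial enzymes and 2 scaffolds. All 39 passed the filter on low counts, as did 15150 genes in all.

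RNA was sequenced from HepG2 cells, an established human liver cancer line, with 2 libraries per group. Control cells carried Cas9 and a control sgRNA. The sgUSP22 cells carried Cas9 and a sgRNA against *USP22*, the deubiquitinase of the SAGA complex. Both were populations infected with lentivirus, and all were treated with Sorafenib for 24 h, so no library shows the state without the drug. Nothing ties the 2 libraries of a group to separate cultures, so the p-values measure the spread between these libraries, which may be technical. Total counts ranged from 62030307 to 64728272 per library. *USP22* had 16450 and 16537 counts in control libraries and 20279 and 20368 counts in sgUSP22 libraries, so its transcript was not lower under the knockout label. The paper checked the knockout by Western blot, and transcript counts do not measure the protein. Each direction below follows the label. Of 15 hepatocyte and hepatoma markers, 8 were listed at 0 in all 4 libraries, *ALB*, *APOA1* and *APOB* among them, and 0 passed the filter. The markers together had between 12 and 45 counts per library, which goes against the labelled cell type, while the mesenchymal gene *VIM* had between 52054 and 66580 counts.

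Changes are given as the log2 fold change (LFC, sgUSP22 over control) with its standard error (SE). At an adjusted p below 0.05 (edgeR, Benjamini-Hochberg over all tested genes), 11 of the 39 genes rose and 14 fell in sgUSP22 cells. The shares of 28.2% and 35.9% stand beside 26.8% of all tested genes that rose and 25.8% that fell. Most of these changes were small. In RNA from whole populations, fewer cells of a type and less RNA per cell cannot be told apart. With a fold change of at least 1.5 required as well, 2 genes were called higher, *PARS2* and *MARS2*, and 1 was called lower, *VARS1*, where 8.88% of all tested genes were called higher and 7.25% lower. Control and sgUSP22 libraries were fully separate for 31 of the 39 genes, or 79.5%, against 75.9% of all tested genes. The median LFC was -0.099 over the cytosolic enzymes and -0.069 over the mitochondrial enzymes, beside 0.0009 over all tested genes. Without *GARS1* and *KARS1*, which supply both compartments, the cytosolic median was -0.075, and without *PARS2* the mitochondrial median was -0.071. The mitochondrial enzymes ran from -0.31 to 1.61, and the cytosolic enzymes from -0.61 to 0.27. The upper end of the mitochondrial range is *PARS2* alone, and without it the range was from -0.31 to 0.63.

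**Figure D1:**
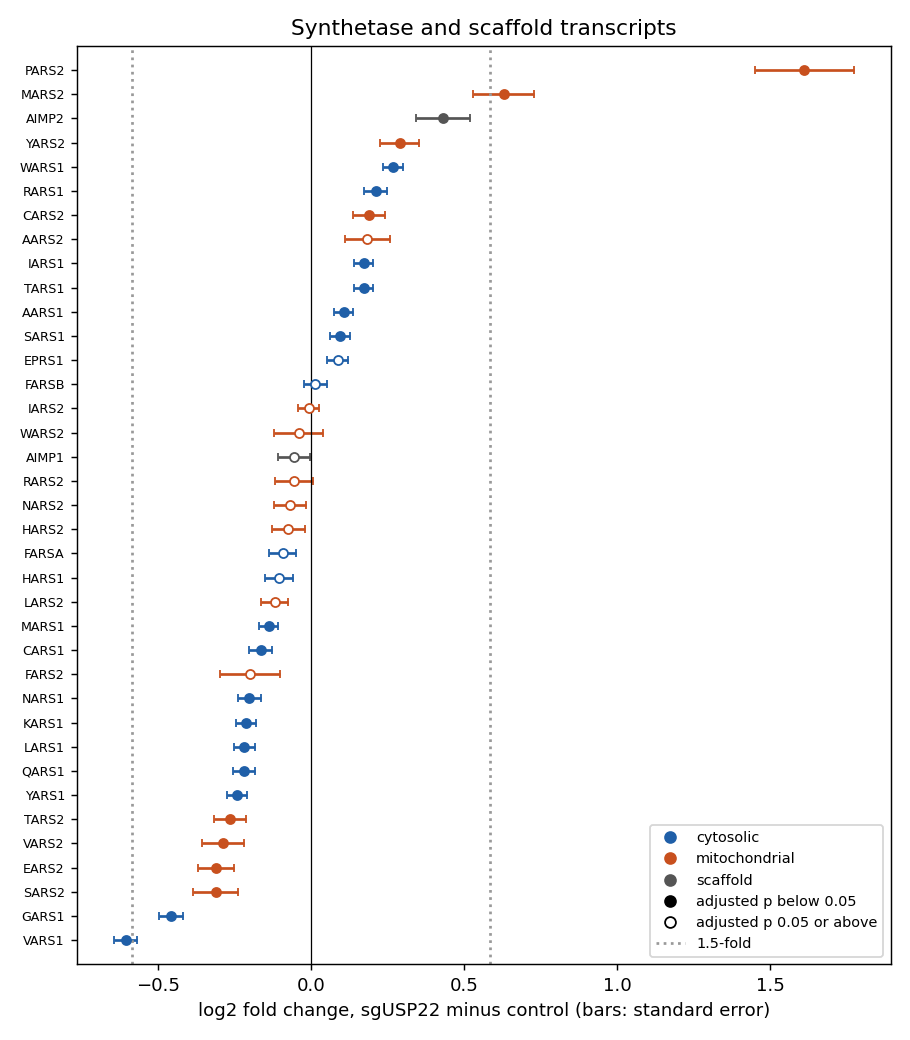
LFC of 37 of the 39 genes on the x axis (sgUSP22 minus control, bars are the SE), ordered from the largest decrease to the largest increase and coloured by compartment. Filled points had an adjusted p below 0.05, dotted lines mark 1.5-fold, and *PARS2* at 1.61, *MARS2* at 0.63 and *VARS1* at -0.61 are the 3 genes beyond them.

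Many cytosolic synthetase genes are targets of ATF4, a transcription factor that is translated when uncharged tRNAs activate the kinase GCN2. ATF4 binds as a dimer with C/EBP proteins to the composite letters TGATGNAA. These letters were searched on both strands in the RefSeq promoter windows (GRCh38.p14, 250 bases before to 50 after a start), which covered 32 of the 39 genes. They were present in windows of 7 of the 16 cytosolic genes with a window and of 1 of the 14 mitochondrial genes, beside 3.62% of all 35116 windows. A gene was counted if any of its windows matched, and the 32 genes had 44 windows. The share of windows is therefore not a share of genes. The stretches of 30 bases around the match are shown on the strand of the gene because 6 of the 8 carry TTGCATCA or its reverse complement, with the match in capitals.
*AARS1*, chr16:70289675-70289704, minus strand: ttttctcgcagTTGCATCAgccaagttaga
*CARS1*, chr11:3057407-3057436, minus strand: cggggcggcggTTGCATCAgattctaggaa
*GARS1*, chr7:30594834-30594863, plus strand: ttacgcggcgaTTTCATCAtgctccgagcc
*IARS1*, chr9:92293692-92293721, minus strand: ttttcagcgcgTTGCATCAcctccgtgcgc
*MARS1*, chr12:57488053-57488082, plus strand: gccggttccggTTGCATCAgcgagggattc
*NARS1*, chr18:57621804-57621833, minus strand: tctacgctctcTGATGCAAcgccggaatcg
*TARS1*, chr5:33440956-33440985, plus strand: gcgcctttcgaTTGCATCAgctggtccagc
*YARS2*, chr12:32756076-32756105, minus strand: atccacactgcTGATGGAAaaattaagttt
The 8 genes with these letters did not move one way. *AARS1*, *IARS1*, *TARS1* and *YARS2* rose, while *CARS1*, *GARS1*, *MARS1* and *NARS1* fell. A match is a description of the letters and not of binding.

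By level, the cytosolic enzymes were the more abundant group. Library-scaled counts (CPM, with TMM factors) were divided by the length of the canonical transcript in kilobases (CPM per kb) and had a median of 127 over the cytosolic and 17.8 over the mitochondrial enzymes in control cells. *WARS1*, tryptophanyl-tRNA synthetase, had the highest level in control cells at 289 CPM per kb, followed by *GARS1* at 260 and *TARS1* at 256. *FARSB*, the beta subunit of the phenylalanine enzyme, was the lowest cytosolic gene at 24.2, on the longest transcript of the set at 6761 bases. Among mitochondrial enzymes *IARS2* stood highest at 88.6 CPM per kb, and *PARS2* was the lowest of all 39 genes at 0.849. The scaffolds *AIMP1* and *AIMP2* had 21.5 and 16.7 CPM per kb.

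**Figure D2:**
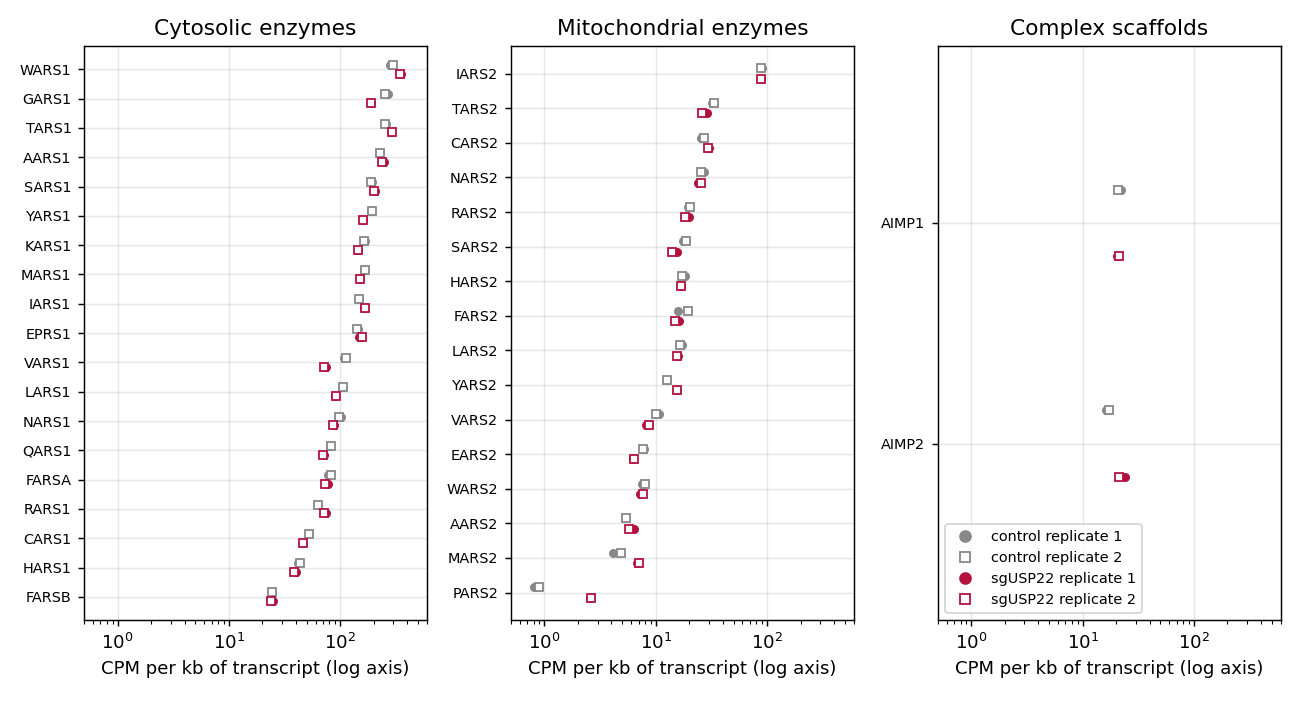
CPM per kb of transcript in each library on a log x axis for 37 of the 39 genes, as cytosolic enzymes, mitochondrial enzymes and complex scaffolds, with control libraries in grey and sgUSP22 libraries in red. The replicates lie close together beside the range between genes, from 0.849 for *PARS2* to 289 for *WARS1* in control cells.

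Among the cytosolic enzymes, 9 genes fell, 6 rose and 5 did not pass the test. The largest decrease was that of *VARS1*, valyl-tRNA synthetase (chromosome 6, 31777518 to 31795752, minus strand). It had 27358 and 29105 counts in control libraries and 20101 and 19075 counts in sgUSP22 libraries. Both sgUSP22 libraries lay below both control libraries, at 301 ± 7.36 (SD, n = 2) against 458 ± 12.6 CPM (SD, n = 2). The LFC was -0.61 (SE 0.036, edgeR adjusted p = 9.4e-07). The adjusted p stayed below 0.05 under each scaling and filter and without each library, but the value is near the 1.5-fold threshold. It fell short of it once trends with GC content and transcript length were removed (GC-length correction) (-0.47), with library size alone (-0.55), without control replicate 2 and without sgUSP22 replicate 2 (both -0.58). *VARS1* had the highest GC content of the 39 transcripts at 61.7%.

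*GARS1*, glycyl-tRNA synthetase, fell to a smaller extent. Its counts were 40070 and 38135 in control and 30457 and 29757 in sgUSP22 libraries, and the groups were separate. The LFC was -0.46 (SE 0.039, edgeR adjusted p = 8.36e-06), and -0.45 after the GC-length correction. The gene lies on the short arm of chromosome 7 from 30580533 to 30634033, and the 18 other tested genes that start within 2 Mb of it had a median LFC of -0.35, with 13 of them lower. The part of that regional shift in the *GARS1* value was not tested. *KARS1*, lysyl-tRNA synthetase, which like *GARS1* supplies both compartments, fell from 20450 and 20470 to 18826 and 18457 counts, an LFC of -0.21 (SE 0.033, edgeR adjusted p = 0.000453).

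The other decreases among cytosolic enzymes were between -0.14 and -0.24 on the log2 scale. *YARS1*, the tyrosine enzyme, had 28050 and 29242 counts in control and 25746 and 25426 counts in sgUSP22 libraries (LFC -0.24, SE 0.032, edgeR adjusted p = 0.000153). The leucine gene *LARS1* had 30581 and 31247 counts in control and 27784 and 28351 counts in sgUSP22 libraries (LFC -0.22, SE 0.033), against a median of 0.53 over its 11 neighbours within 2 Mb. *QARS1*, the glutamine enzyme, also had an LFC of -0.22, and the asparagine enzyme *NARS1* had -0.20. In each of these the groups did not overlap. After the GC-length correction *QARS1* was at -0.11 and *LARS1* at -0.36, and both passed. *CARS1* for cysteine and *MARS1* for methionine had the smallest decreases, -0.16 and -0.14, and neither passed the test after the GC-length correction, at -0.088 (edgeR adjusted p = 0.0546) and -0.060 (adjusted p = 0.105).

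The largest increase among cytosolic enzymes was that of *WARS1*, an enzyme known to be induced by interferon gamma. It had 45337 and 48633 counts in control and 60556 and 58940 counts in sgUSP22 libraries, with no overlap. The LFC was 0.27 (SE 0.033, edgeR adjusted p = 9.15e-05). Of 8 interferon response genes listed beside it, 5 rose and 3 fell (62.5% and 37.5%, beside 26.8% and 25.8% of all tested genes). The guanylate-binding protein gene *GBP1* went from 14 and 7 to 577 and 544 counts and *GBP2* from 46 and 43 to 777 and 774 counts, and the chemokine *CXCL10* went from 96 and 88 to 529 and 466 counts. Their relation to *WARS1* was not tested.

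*RARS1*, the arginine enzyme, rose from 8242 and 8284 to 10354 and 9854 counts (LFC 0.21, SE 0.038, edgeR adjusted p = 0.00106). *IARS1* and *TARS1*, for isoleucine and threonine, each had an LFC of 0.17, with SEs of 0.030 and 0.031. For *IARS1* the counts were 40254 and 41120 in control and 48413 and 48383 in sgUSP22 libraries, and for *TARS1* they were 42323 and 42105 against 50477 and 49968. All 3 genes were higher in both sgUSP22 libraries than in both control libraries. After the GC-length correction they still passed, at smaller values of 0.13 for *RARS1*, 0.072 for *IARS1* (edgeR adjusted p = 0.0434) and 0.11 for *TARS1*. The rises of *AARS1* (0.11, edgeR adjusted p = 0.0157) and *SARS1* (0.095, adjusted p = 0.0344), for alanine and serine, were the smallest. *SARS1* did not pass the test when any of the 4 libraries was left out, and *AARS1* did not without sgUSP22 replicate 1 (0.070, adjusted p = 0.163). The GC-length correction raised them to 0.18 for *AARS1* and 0.20 for *SARS1*.

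The 5 cytosolic genes that did not pass the test include both subunits of the phenylalanine enzyme. *FARSA*, the catalytic alpha subunit, had an LFC of -0.093 (SE 0.045) and *FARSB* had 0.013 (SE 0.037). After the GC-length correction the pair went the other way round, with 0.10 for *FARSA* and -0.22 for *FARSB* (edgeR adjusted p = 0.00104 for *FARSB*). *EPRS1*, a fusion enzyme that charges both glutamate and proline tRNAs, had 42908 and 42935 counts in control and 47426 and 48825 counts in sgUSP22 libraries. Its LFC of 0.087 missed the threshold (edgeR adjusted p = 0.0555), as it did with RLE scaling and with unfiltered genes. *EPRS1* passed with DESeq2 (DESeq2 adjusted p = 0.0123) and with genes averaging 50 counts or more (edgeR adjusted p = 0.0482). It also passed with a block on replicate number (edgeR adjusted p = 0.0417) and with library size alone (0.14, adjusted p = 0.00608). After the GC-length correction the LFC turned to -0.043. *HARS1*, for histidine, had an LFC of -0.10, which the same correction moved to 0.0032.

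The multi-synthetase complex contains 8 of the cytosolic enzymes, among them those encoded by *EPRS1*, *IARS1*, *KARS1*, *LARS1*, *MARS1*, *QARS1* and *RARS1*. Of these 8, 2 rose and 4 fell, with a median LFC of -0.097, and of the 12 other cytosolic genes 4 rose and 5 fell, with a median of -0.099. The 3 scaffolds of the complex differed among themselves. *AIMP2* rose from 1183 and 1282 to 1884 and 1626 counts. In CPM this is 19.4 and 20.55 against 28.7 and 25.2 (SD 0.812 and 2.46, n = 2 each), with no overlap. Its LFC was 0.43 (SE 0.087, edgeR adjusted p = 0.00213), between 0.32 and 0.52 as single libraries were left out. *AIMP1* had 3771 and 3575 counts in control and 3696 and 3770 counts in sgUSP22 libraries, which overlap, at an LFC of -0.056 (SE 0.054), and it passed the test only after the GC-length correction, at -0.29 (edgeR adjusted p = 0.00107). *EEF1E1*, which encodes the third scaffold and is no member by symbol, had 0.055 (SE 0.050).

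Of the 17 mitochondrial enzymes, 4 rose, 5 fell and 8 did not pass the test. *PARS2*, mitochondrial prolyl-tRNA synthetase, changed most of all 39 genes. It had 115 and 132 counts in control libraries and 395 and 402 counts in sgUSP22 libraries, which is 1.89 and 2.12 CPM against 6.01 and 6.23 CPM (SD 0.163 and 0.153, n = 2 each). The groups were far apart, by 3.06-fold, although the gene is the least abundant of the set. The LFC was 1.61 (SE 0.16, edgeR adjusted p = 2.42e-05). It ranged from 1.53 to 1.70 as single libraries were left out and was 1.72 after the GC-length correction. The gene lies on the minus strand of chromosome 1 from 54756898 to 54764523, where 26 tested neighbours within 2 Mb had a median LFC of 0.012, with 13 higher and 13 lower.

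*MARS2*, mitochondrial methionyl-tRNA synthetase, is encoded in 1 exon on the plus strand of chromosome 2, from 197705369 to 197708395. Its counts were 757 and 911 in control and 1342 and 1381 in sgUSP22 libraries, and the groups did not overlap. The LFC was 0.63 (SE 0.10, edgeR adjusted p = 0.000486), and 0.52 without control replicate 1, which is below the 1.5-fold threshold. The 14 tested neighbours had a median of -0.033. The 150 bases before the RefSeq starts of the 2 genes called higher are shown to compare what stands upstream of them, 5′ to 3′ on the strand of the gene (GRCh38.p14). Capitals mark CCAAT boxes (CCAAT or ATTGG), ETS-type letters (CCGGAAG or CTTCCGG) and E-boxes (CACGTG).
*PARS2*, chr1:54764524-54764673, minus strand: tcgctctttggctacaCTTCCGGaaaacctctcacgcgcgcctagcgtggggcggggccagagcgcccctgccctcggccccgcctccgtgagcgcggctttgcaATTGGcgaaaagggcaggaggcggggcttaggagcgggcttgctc
*MARS2*, chr2:197705219-197705368, plus strand: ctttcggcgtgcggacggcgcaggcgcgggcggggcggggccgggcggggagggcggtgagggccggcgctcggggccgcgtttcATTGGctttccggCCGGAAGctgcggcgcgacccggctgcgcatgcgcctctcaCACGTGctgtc
Within these 150 bases both carry an ATTGG and ETS-type letters, at -45 and -134 for *PARS2* and at -65 and -52 for *MARS2*, counted to the first base of the match from the start. CCAAT boxes occur in 34.6%, ETS-type letters in 10.3% and E-boxes in 7.26% of all promoter windows. In the 32 members with a window, CCAAT boxes were found for 18 and ETS-type letters for 16, counting a member if any window matched. Both kinds were found for *PARS2*, *MARS2*, *CARS2*, *TARS1* and *WARS1*, which rose, and for *CARS1*, *EARS2*, *NARS1*, *SARS2* and *TARS2*, which fell.

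*YARS2*, for tyrosine, and *CARS2*, for cysteine, rose less. *YARS2* had 1621 and 1672 counts in control and 2141 and 2108 counts in sgUSP22 libraries, with an LFC of 0.29 (SE 0.065, edgeR adjusted p = 0.0039). It lies on the short arm of chromosome 12 at 32727490 to 32755897, where all 15 tested neighbours were higher, with a median of 0.39, above that of *YARS2* itself. *CARS2* had 2853 and 3080 counts in control and 3650 and 3486 counts in sgUSP22 libraries, and an LFC of 0.19 (SE 0.052, edgeR adjusted p = 0.0125), against a median of -0.49 over its 11 neighbours. Its call was lost without control replicate 1 (adjusted p = 0.074) and without sgUSP22 replicate 1 (adjusted p = 0.119), while the GC-length correction raised the LFC to 0.34.

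The 5 mitochondrial enzymes that fell did so by similar amounts, from -0.26 to -0.31 on the log2 scale. *SARS2*, for serine, had 2059 and 2255 counts in control and 1945 and 1727 counts in sgUSP22 libraries (LFC -0.31, SE 0.074, edgeR adjusted p = 0.00552). *EARS2*, for glutamate, had 2474 and 2503 counts in control and 2112 and 2126 counts in sgUSP22 libraries (LFC -0.31, SE 0.058, edgeR adjusted p = 0.00132). *VARS2* for valine had an LFC of -0.29 (SE 0.068) and *TARS2* for threonine -0.26 (SE 0.053), both without overlap. After the GC-length correction *EARS2* (-0.35) and *TARS2* (-0.17) still passed the test, while *SARS2* (-0.12, edgeR adjusted p = 0.156) and *VARS2* (-0.16, adjusted p = 0.0793) did not.

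The 8 mitochondrial enzymes that did not pass were *AARS2* (LFC 0.18, edgeR adjusted p = 0.0579, past the threshold at 0.26 after the GC-length correction), *IARS2*, *WARS2*, *RARS2*, *NARS2*, *HARS2*, *LARS2* (-0.12, adjusted p = 0.0502, and from 0.0394 to 0.283 over the alternatives) and *FARS2* (-0.20, adjusted p = 0.118). *IARS2*, the most abundant of them, had 19351 and 19232 counts in control and 20561 and 19996 counts in sgUSP22 libraries, which overlap after scaling, and an LFC of -0.0069 (SE 0.034). *FARS2* had 1635 and 2050 counts in control and 1780 and 1608 counts in sgUSP22 libraries, and these overlap. Its value rested on control replicate 2, being -0.34 without control replicate 1 (edgeR adjusted p = 0.0064) and -0.045 without control replicate 2 (adjusted p = 0.741). *HARS2* and *HARS1* start next to each other on opposite strands of chromosome 5, and their LFCs of -0.074 and -0.10 were alike in size.

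Where an amino acid has a separate enzyme for each compartment, the pair was compared within each library. *EPRS1* was used for both glutamate and proline and *FARSA* for phenylalanine, which gave 17 pairs. The cytosolic gene was the more abundant per kilobase in all 17 pairs in control cells, among them 1.66-fold for *IARS1* over *IARS2* and 169-fold for *EPRS1* over *PARS2*. In 5 pairs both genes passed the test in opposite directions. *TARS1* and *SARS1* rose while *TARS2* and *SARS2* fell, and *YARS1*, *CARS1* and *MARS1* fell while *YARS2*, *CARS2* and *MARS2* rose. In 1 pair, *VARS1* and *VARS2*, both fell. After the GC-length correction 2 of the opposite pairs were left, those for threonine and tyrosine, and these were opposite in every other fit too.

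For threonine, the log2 ratio of *TARS2* to *TARS1* in CPM per kb was -3.01 and -2.91 in control libraries and -3.32 and -3.47 in sgUSP22 libraries, a change of -0.44. For tyrosine, the ratio of *YARS2* to *YARS1* was -3.91 and -3.92 in control and -3.38 and -3.39 in sgUSP22 libraries, a change of 0.53. Both changes exceed the largest difference between 2 libraries of a group in any pair, 0.21. The ratio of *PARS2* to *EPRS1* changed most, from -7.50 and -7.30 to -5.86 and -5.88, so that *EPRS1* lay 58.5-fold above *PARS2* in sgUSP22 cells. Over the 17 pairs the ratio was higher in 9 and lower in 8, with a median change of 0.031. The mitochondrial median LFC exceeded the cytosolic by 0.030, and this difference turned to -0.038 after the GC-length correction and to -0.025 without sgUSP22 replicate 2. The order of the compartment medians thus depended on the setting.

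**Figure D3:**
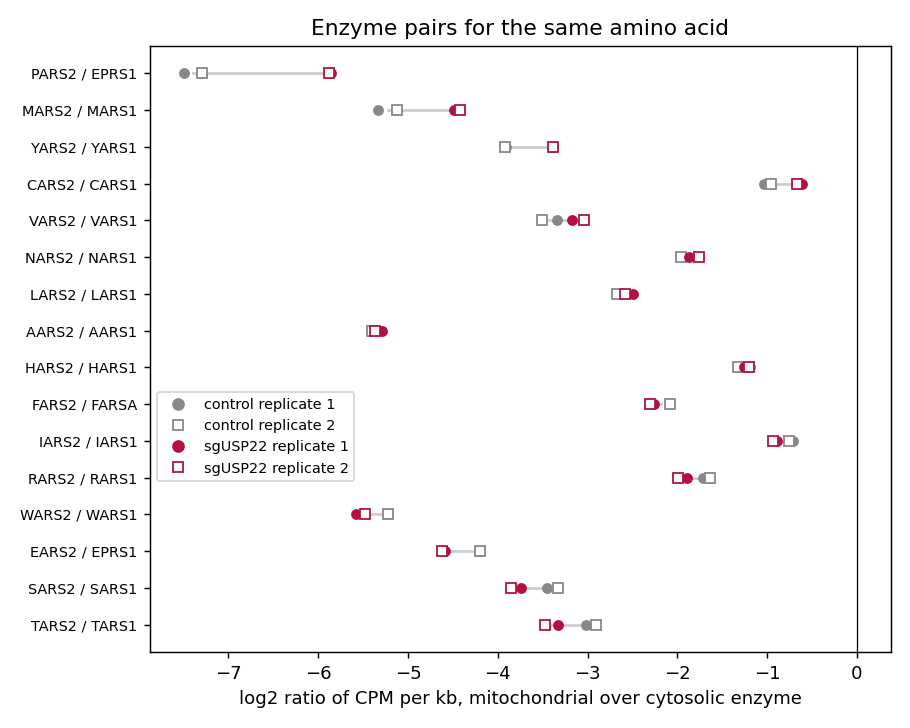
Log2 ratio of the mitochondrial over the cytosolic enzyme of the same amino acid, in CPM per kb of transcript, for each library and 16 of the 17 pairs, ordered by the change between groups. All ratios lie below 0, the cytosolic gene being the more abundant, and the change runs from -0.44 for *TARS2* and *TARS1* to 1.53 for *PARS2* and *EPRS1*.

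By structural class, the 18 genes of class I enzymes had 6 that rose and 8 that fell, with a median LFC of -0.088. The 18 genes of class II enzymes had 4 that rose and 6 that fell, with a median of -0.083. *EPRS1*, which joins an enzyme of each class in 1 protein, was left out of both counts.

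The strand setting of the counting is not given in the sources used here, so reads of genes that overlap on opposite strands cannot be told apart. Of the 39 genes, 17 had a tested gene on the other strand that overlapped them or started within 1 kb. *MARS1* overlaps *DDIT3*, a stress-induced transcription factor gene, with an LFC of -0.20 beside -0.14 for *MARS1*. *YARS2* overlaps *DNM1L*, which also rose, with an LFC of 0.21 beside 0.29 for *YARS2*. The counts of *DNM1L* were 8165 and 8030 in control and 9864 and 9983 in sgUSP22 libraries. Whether its reads add to those of *YARS2* was not tested. In some other cases the neighbours went apart. *DDX19B* starts 44 bases from *AARS1* and fell (-0.40) while *AARS1* rose, and *ING1* starts 867 bases from *CARS2* and fell (-0.49) while *CARS2* rose. *PMS2* starts 125 bases from *AIMP2* and had an LFC of 0.027. *PARS2*, *MARS2*, *VARS1* and *GARS1* had no such partner. GENCODE also names 16 pseudogenes after 12 of the members, *GARS1* and *TARS2* among them, and none of these is listed in the count table, so reads shared with them may be counted for the member or lost.

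**Figure D4:**
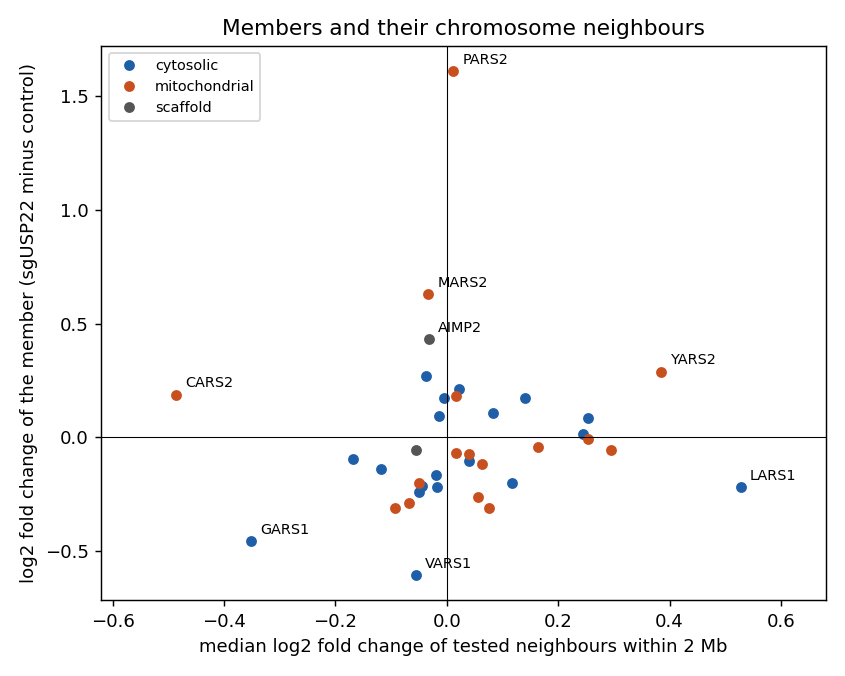
LFC of 37 of the 39 genes (y axis) against the median LFC of other tested genes that start within 2 Mb (x axis), coloured by compartment. *GARS1* (-0.46) and *YARS2* (0.29) lie with shifted neighbours at -0.35 and 0.39, while the neighbours of *PARS2*, *MARS2*, *AIMP2* and *VARS1* are near 0.

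Charging also needs partner proteins, and 15 genes of these were read from the same fit. Of them 4 rose and 7 fell, with a median LFC of -0.12. These shares are 26.7% and 46.7%, beside 26.8% and 25.8% of all tested genes. Mitochondria make glutaminyl-tRNA from glutamyl-tRNA through the GatCAB amidotransferase. Its subunit genes did not move together, with *QRSL1* at 0.33 (SE 0.057, and 0.18 after the GC-length correction), *GATC* at -0.22 (SE 0.041) and *GATB*, which did not pass, at -0.12. *MTFMT*, which formylates the mitochondrial initiator methionyl-tRNA charged by the product of *MARS2*, had 1005 and 1075 counts in control and 1307 and 1055 counts in sgUSP22 libraries, which overlap after scaling. *TUFM*, the mitochondrial elongation factor that delivers charged tRNAs, and *TSFM*, another mitochondrial elongation factor, fell. Their LFCs were -0.37 and -0.25 (-0.22 and -0.26 after the GC-length correction).

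*PSTK*, the kinase that modifies seryl-tRNA on the way to selenocysteine, fell most, from 297 and 267 to 106 and 129 counts (LFC -1.34, SE 0.19, edgeR adjusted p = 0.000246). It lies on chromosome 10, where its 22 tested neighbours had a median of -0.42. *SEPSECS*, which completes selenocysteinyl-tRNA, had an LFC of -0.27, and -0.53 after the GC-length correction. *TRNT1*, which adds the terminal CCA to tRNAs, rose from 2094 and 2017 to 3361 and 3299 counts (LFC 0.62, SE 0.056, edgeR adjusted p = 1.25e-05), with a median of 0.53 over 9 neighbours. After the GC-length correction *TRNT1* was at 0.44, which is below the 1.5-fold threshold. *AARSD1* and *DTD1*, which remove wrongly charged amino acids, fell (-0.57 and -0.55, and -0.42 and -0.61 after the GC-length correction). *DTD2*, a related editing enzyme, rose (0.22, and 0.067 after the same correction), with a median of 0.24 over its 12 neighbours. *XPOT*, the tRNA exporter, rose by 0.11, which turned to -0.097 after the GC-length correction. *TARS3*, a threonyl-tRNA synthetase-like gene outside the naming rule, had 273 and 303 counts in control and 335 and 356 counts in sgUSP22 libraries, an LFC of 0.19 (SE 0.14, adjusted p = 0.309).

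**Figure D5:**
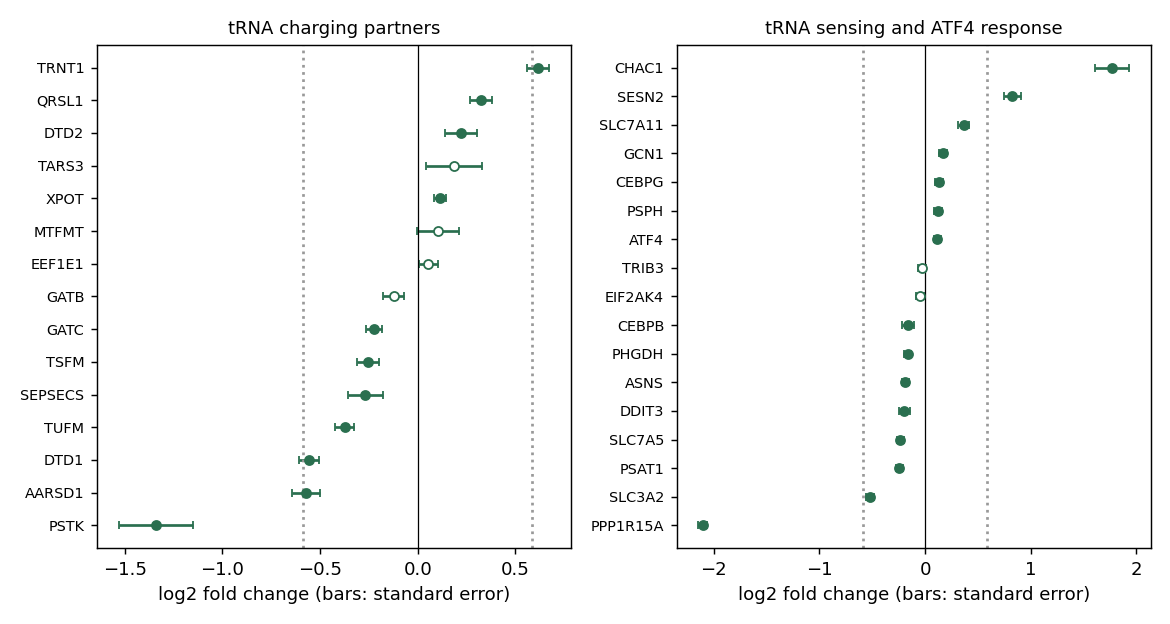
LFC (bars are the SE) of 15 tRNA charging partner genes and of 17 genes of uncharged tRNA sensing and the ATF4 response, with filled points at an adjusted p below 0.05 and dotted lines at 1.5-fold. *PSTK* at -1.34 and *TRNT1* at 0.62 stand beyond the lines on the left panel, and *PPP1R15A* at -2.11, *SESN2* at 0.83 and *CHAC1* at 1.77 on the right panel.

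Of 17 genes of uncharged tRNA sensing and the ATF4 response, 7 rose and 8 fell, with a median LFC of -0.048. The shares of 41.2% and 47.1% stand beside 26.8% and 25.8% of all tested genes. *EIF2AK4*, which encodes the sensor GCN2, had 6535 and 6482 counts in control and 6569 and 6728 counts in sgUSP22 libraries (LFC -0.048, SE 0.042). *ATF4* itself rose, from 34936 and 34908 to 40725 and 39290 counts (LFC 0.12, SE 0.032, edgeR adjusted p = 0.0109), and was at 0.26 after the GC-length correction. Its targets split, as the synthetase genes with TGATGNAA letters did. *CHAC1*, which degrades glutathione, went from 148 and 199 to 599 and 649 counts, and *SESN2*, a stress-induced inhibitor of growth signalling, from 839 and 885 to 1620 and 1605 counts. *PPP1R15A*, which restores translation after stress, went from 28519 and 27818 to 7078 and 6744 counts (LFC -2.11, SE 0.040).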

How the data were processed

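RNA-seq libraries of control and sgUSP22 HepG2 cells were compared, 2 per group. The authors aligned reads to hg38 with HISAT2 (v2.2.1) and deposited whole-number gene counts from StringTie (v2.2.1), which are not normalised. The annotation is not given in the sources used here. Each column was assigned by its name, and 0 columns were unassigned. In R 4.3.3, counts were filtered with filterByExpr (minimum count 10), scaled with TMM and tested with edgeR 4.0.16 (glmQLFit, glmQLFTest), with Benjamini-Hochberg adjustment over all 15150 tested genes. The standard error of an LFC was taken as its size over the root of the quasi-likelihood F. Genes were called at the study's thresholds, an adjusted p below 0.05 with 1.5-fold or more. The procedure was tested on simulated data. Alternatives were DESeq2 1.42.0, RLE scaling or none beyond library size, unfiltered genes, genes averaging 50 counts or more, a block on replicate number, no fold threshold, a test against 1.5-fold, removal of lowess trends on GC content and transcript length (span 0.3), and leaving out each library. Positions, lengths and GC content came from GENCODE v44 (GRCh38, 25763 of 28278 symbols matched), promoters from RefSeq. Members were all named, apart from genes whose single values are not reported here and which stay in the counts and medians. Partner genes were all named, and genes of the other lists where called, at most 3 per direction, as were *ATF4* and *EIF2AK4*. Members and lists were chosen with earlier results of these data known. Counting error alone limits genes of low count, and a count of 0 allows up to 3 counts.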

Additional observations from a re-analysis of the deposited data

How the results depend on the processing

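Counts over all genes, 1345 higher and 1098 lower, became 4057 and 3904 with no fold threshold and 578 and 428 with the test against 1.5-fold. The 2 synthetase genes called higher and 1 called lower became 11 and 14, and 1 and 0, in these settings by their construction. The call of *VARS1* was also lost, leaving 0 lower, both after the GC-length correction and under plain library-size scaling. The medians of the cytosolic (-0.099) and mitochondrial enzymes (-0.069) were -0.047 and -0.016 with library size alone, where the median of all genes moved to 0.053, and -0.074 and -0.112 after the correction, which turned their difference from 0.030 to -0.038. The causes were not tested.

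With 1 library left out, the lone library being assumed to vary like the other group, genes called ranged from 1158 to 1400 higher and from 995 to 1139 lower, synthetase genes from 1 to 2 higher and from 0 to 1 lower, the cytosolic median from -0.15 to -0.061, the mitochondrial median from -0.091 to -0.045, and their difference from -0.025 to 0.059. Synthetase genes past the adjusted p ranged from 9 to 11 higher and from 14 to 15 lower. The direction reversed for *IARS2* (range -0.028 to 0.013, above 0 without control replicate 1 or sgUSP22 replicate 2), *RARS2* (-0.14 to 0.012, above 0 without sgUSP22 replicate 2) and *FARSB* (-0.025 to 0.039, below 0 without sgUSP22 replicate 1).

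In the other settings, 251 of 273 values of single members kept direction and side of the threshold. The direction reversed with library size alone for *WARS2* (0.012) and *IARS2* (0.045), and after the GC-length correction for *EPRS1* (-0.043), *FARSA* (0.10), *FARSB* (-0.22) and *HARS1* (0.0032). After that correction 10 of the 14 genes that fell and 11 of the 11 that rose were called again. With the replicate block 12 members rose and 14 fell, against 11 and 14, *EPRS1* being the added gene (adjusted p = 0.0417). Deviations of same-numbered libraries from their group means correlated at 0.042 between groups, so little shared effect of the number was seen. Whether same-numbered libraries were prepared together is not given by the labels.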
